A study of Mus musculus with 28 samples.

Results

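H3K4me3 peaks of A2a neurons and of D1 neurons of the adult mouse striatum were compared over chromosomes 1 to 19. All 21819 autosomal peaks of the A2a list and all 19400 autosomal peaks of the D1 list were used, out of 22551 and 20080 peaks on all chromosomes and out of 148582 peaks and islands in all lists of the series. Each peak carried the −log10 of its q-value, a measure of how far the reads under it exceeded the local background, and its fold enrichment over that background. Because the values of each list depend on the reads of its own library, the −log10 q was ranked within the list and given as a percentile, where 100 is the strongest peak. The shift of a gene was its A2a percentile minus its D1 percentile, so a positive shift means a higher place in the A2a list.

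The series held 28 samples, and 4 of them stood behind these lists. They were CUT&RUN (CnR) libraries made with the Abcam antibody to H3K4me3, 2 replicates from A2a nuclei and 2 from D1 nuclei, and each list pools both replicates of its cell type. Nuclei carried a Sun1-sfGFP tag on the nuclear envelope and were taken from the striatum by affinity purification (INTACT). The A2a group came from Sun1-sfGFP mice crossed to A2a-cre, and the D1 group from the same tagged line crossed to Drd1-cre, so the nuclei of both groups had lost the stop cassette before Sun1-sfGFP and had expressed Cre. Mice of both sexes on a C57BL/6J background were used in the study, and the labels give no treatment. Their age is about 8 weeks in the study's methods, while its results give a wider range of weeks. The 2 replicates are called technical in the study's reporting summary, whereas its methods speak of biological ones. With 1 pooled list in each group there was no replicate error, so no test was made and no p-value is given. The reads of each library are not in the lists, so the depth behind each percentile is unknown. Counts below describe these 2 lists, and a share of nuclei that carry the mark cannot be told apart from the amount of the mark in each nucleus.

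H3K4me3, trimethylated lysine 4 of histone H3, is laid down at promoters by the SET1 and MLL methyltransferases and marks the 5′ ends of active genes. CpG islands carry it widely, since CFP1 and related proteins recruit these enzymes to unmethylated CpG, and developmental genes that are silenced by Polycomb can hold it together with H3K27me3. A2a neurons are the striatopallidal medium spiny neurons, which express the adenosine A2A and dopamine D2 receptors, and D1 neurons are the striatonigral ones, which express the dopamine D1 receptor.

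The promoters of 6 genes are shown because they frame the comparison: the gene of each Cre driver, the strongest shift in each direction among genes that ranked above percentile 50 in both lists, and the largest shift in each direction among promoters poor in CpG. Each run is the 250 bases before the annotated 5′ end, on the strand of the gene, read from the RefSeq GRCm38 sequence with GENCODE starts, and capitals mark each CG dinucleotide. The intervals were chr10:75316627-75316876 on the plus strand for *Adora2a*, chr13:54055706-54055955 on the minus strand for *Drd1* and chr13:10360848-10361097 on the minus strand for *Chrm3*. The others were chr11:62550921-62551170 on the plus strand for *Ubb*, chr8:95490040-95490289 on the minus strand for *Csnk2a2* and chr17:34591016-34591265 on the plus strand for *Pbx2*.
Adora2a: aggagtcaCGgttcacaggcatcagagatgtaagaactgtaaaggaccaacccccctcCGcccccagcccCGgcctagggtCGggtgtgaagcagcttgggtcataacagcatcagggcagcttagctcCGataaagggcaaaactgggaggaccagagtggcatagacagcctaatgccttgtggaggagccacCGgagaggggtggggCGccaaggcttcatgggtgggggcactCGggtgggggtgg
Drd1: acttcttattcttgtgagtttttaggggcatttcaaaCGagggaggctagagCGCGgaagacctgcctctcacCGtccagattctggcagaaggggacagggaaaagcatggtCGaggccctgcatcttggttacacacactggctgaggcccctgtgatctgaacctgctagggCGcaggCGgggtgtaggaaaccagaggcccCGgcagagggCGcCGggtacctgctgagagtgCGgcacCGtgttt
Chrm3: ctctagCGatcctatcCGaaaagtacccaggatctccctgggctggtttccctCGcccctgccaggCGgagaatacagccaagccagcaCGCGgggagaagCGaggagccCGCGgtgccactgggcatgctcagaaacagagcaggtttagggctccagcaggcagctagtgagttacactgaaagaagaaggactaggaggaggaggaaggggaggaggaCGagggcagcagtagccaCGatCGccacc
Ubb: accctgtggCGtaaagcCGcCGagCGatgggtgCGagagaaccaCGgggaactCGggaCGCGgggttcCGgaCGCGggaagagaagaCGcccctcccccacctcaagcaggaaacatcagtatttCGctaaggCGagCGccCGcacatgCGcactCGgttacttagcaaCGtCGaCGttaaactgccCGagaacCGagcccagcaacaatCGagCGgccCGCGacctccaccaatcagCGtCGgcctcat
Csnk2a2: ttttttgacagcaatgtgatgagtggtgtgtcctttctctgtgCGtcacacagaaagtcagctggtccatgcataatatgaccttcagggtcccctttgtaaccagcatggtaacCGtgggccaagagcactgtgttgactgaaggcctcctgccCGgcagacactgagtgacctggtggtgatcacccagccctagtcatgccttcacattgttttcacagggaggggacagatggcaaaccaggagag
Pbx2: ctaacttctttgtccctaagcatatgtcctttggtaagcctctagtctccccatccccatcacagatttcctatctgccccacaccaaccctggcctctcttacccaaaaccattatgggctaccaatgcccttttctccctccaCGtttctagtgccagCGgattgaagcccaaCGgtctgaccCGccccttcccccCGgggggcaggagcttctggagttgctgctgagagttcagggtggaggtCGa
*Ubb*, whose peak stood far higher in the D1 list, held 30 CG dinucleotides in this window. *Adora2a* held 8, *Drd1* 12 and *Chrm3* 12, while *Csnk2a2* held 3 and *Pbx2* 6.

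Before the comparison, features of the lists that do not come from the neuron type were looked for. The A2a list had 2 peaks on chromosome Y and none at the promoters of *Uty*, *Ddx3y*, *Kdm5d* and *Eif2s3y*, while the D1 list had 7 peaks there and one at each of these 4 promoters. *Xist*, the RNA of the inactive X chromosome, had a promoter peak with a −log10 q of 136 in the A2a list and none in the D1 list. Sex of the mice and cell type therefore cannot be told apart in these 2 lists, and sex chromosomes were not ranked. Promoters of non-neuronal genes also differed. Of 12 microglia markers, 1 had a peak in both lists and 4 in the A2a list alone, among them *P2ry12* and *Tmem119* at percentiles 13.3 and 23.3. Of 12 astrocyte markers, 6 had a peak in both lists and 3 in the A2a list alone, with *Gja1* at 30.2 in the A2a list against 4.52 in the D1 list and *Slc1a3* at 44.8 against 27.8. Of 15 oligodendrocyte lineage markers, 6 had a peak in both lists, 3 in A2a alone and 2 in D1 alone, with *Olig2* at 26.9 and 1.14 and *Mbp* at 87.7 and 80.2. Of 15 endothelial and mural markers, 3 had a peak in both lists and 1 in A2a alone. Among all genes with a promoter peak in either list, 4.39% had one in A2a alone and 0.259% in D1 alone. The A2a share was 21.1% among genes whose promoters carried H3K27me3 in both cell types. All 16 glial and vascular markers that had a peak in both lists had the higher percentile in A2a, beside 65.4% of all genes and 93.0% of genes in the weakest of 10 equal groups by mean percentile. The higher A2a rank was not particular to them. Of 12 cortical excitatory neuron markers, 5 had a peak in both lists, all 5 higher in A2a, and 1 in D1 alone. Of 15 interneuron markers, 2 had a peak in both lists, 1 higher in each. The part of other cell types in the results that follow was not tested.

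Of 20807 protein-coding genes on chromosomes 1 to 19, 11788 had a peak in both lists in a promoter window that began 2 kb before the 5′ end and ended 1 kb after it, and the strongest such peak stood for the gene. A further 543 genes had a promoter peak in the A2a list alone, which is 4.39% of the genes with a peak in either list, and 32 genes, 0.259%, in the D1 list alone. Ranks in the 2 lists were close, with a Spearman coefficient of 0.842 across the 11788 genes, which are not independent replicates. Percentiles were at least 10 points higher in A2a for 3201 genes (27.2%) and at least 10 points higher in D1 for 1241 genes (10.5%). The median shift was 3.92 points, with an interquartile range from −2.76 to 10.7.

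This excess of A2a shifts depended on how the genes were ranked. A2a supplied 72.1% of the genes with a shift of at least 10 points in the ranking by −log10 q, but 44.7% when the peaks were ranked by fold enrichment, 50.5% when equal numbers of peaks were ranked and 51.6% when percentiles were taken among the shared genes. When each gene was set against others of the same mean percentile, in 10 equal groups, the share was 48.7%. Ranked by width it was 90.1%, which is the other extreme. The median shift ran from 12.2 points in the weakest of these 10 groups to 0.0803 in the strongest. For these reasons every class of genes below is set beside the median of all genes, and the same difference is given within groups of equal mean percentile and after ranking by fold enrichment where the class is described in full. The shift by −log10 q and the shift by fold enrichment had a Spearman coefficient of 0.873 across the genes.

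**Figure D1:**
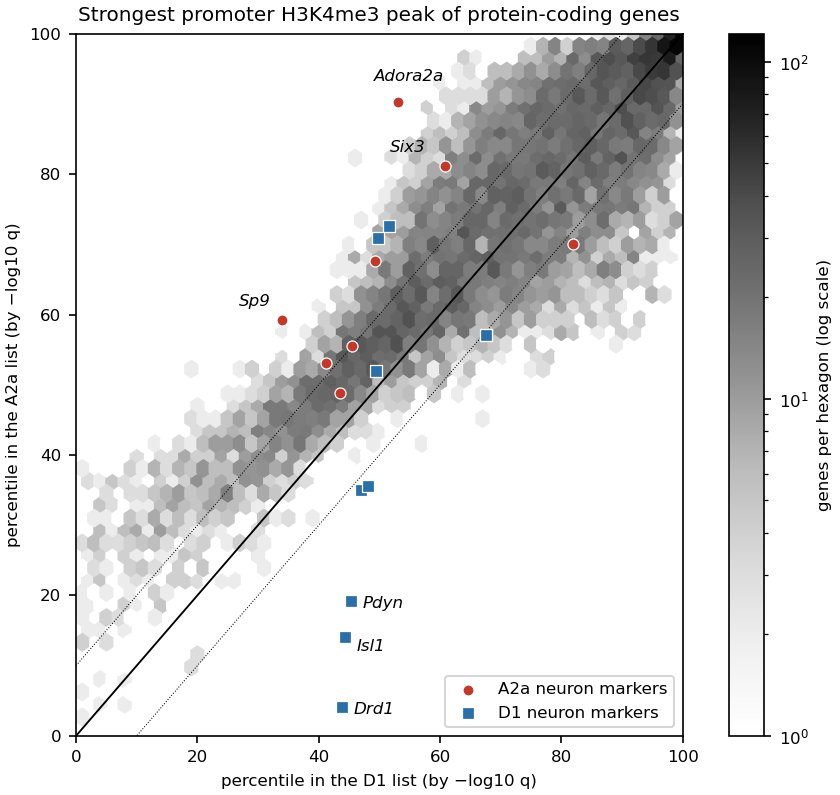
Percentile of the strongest promoter H3K4me3 peak of 11788 protein-coding genes in the D1 list (x axis) and in the A2a list (y axis), ranked by −log10 q, with the number of genes in each hexagon on a log grey scale, the diagonal as a solid line and shifts of 10 points as dotted lines. *Drd1*, *Isl1* and *Pdyn* lie below the cloud of genes, and *Adora2a* and *Sp9* lie along its upper edge.

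The marker genes of the 2 neuron types checked the labels. *Adora2a*, the A2A receptor gene, stood at percentile 90.3 in the A2a list and 53.1 in the D1 list, with −log10 q values of 182 and 55.5. *Sp9* and *Six3*, transcription factors of the striatopallidal lineage, stood at 59.2 against 33.9 and at 81.1 against 60.8. *Drd2* and *Penk*, for the D2 receptor and the enkephalin precursor, differed less, at 53.1 against 41.3 and 48.9 against 43.5. *Plxdc1* went the other way, at 70.0 in A2a and 82.0 in D1. Of the 8 A2a markers with a peak in both lists, 7 were higher in A2a, beside 65.4% of all genes. By at least 10 points, 5 (62.5%) were higher in A2a and 1 (12.5%) in D1, beside 27.2% and 10.5% of all genes.

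*Drd1* lay at percentile 4.05 in the A2a list and 43.8 in the D1 list, with −log10 q values of 5.002 and 35.7. Another A2a peak, which overlaps the D1 peak but lies outside the promoter window, ranked at 16.4. *Isl1*, a LIM homeodomain factor of striatonigral neurons, stood at 14.1 in A2a and 44.3 in D1, and *Pdyn*, the dynorphin precursor, at 19.2 and 45.2. *Tac1*, which encodes substance P, stood at 35.7 and 48.2. *Ebf1*, a transcription factor of the striatonigral lineage, had a promoter peak at percentile 46.8 in D1 and none in A2a. *Reln* and *Zfp521* went the other way, at 72.6 in A2a against 51.5 in D1 and at 71.0 against 49.7, while *Sfxn1* stood at 52.0 and 49.5. Of the 9 D1 markers with a peak in both lists, 6 (66.7%) were at least 10 points higher in D1 and 2 (22.2%) at least 10 points higher in A2a. The shares of all genes were 10.5% and 27.2%. *Chrm4* and *Dlk1* had no promoter peak in either list.

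The order of the 2 marker lists depended on the measure ranked. Set beside all genes, the median shift was 11.2 points for the A2a markers and −16.0 for the D1 markers by −log10 q. By fold enrichment both signs turned, to −4.66 and 9.48. Ranked by width the A2a markers had −0.580 and the D1 markers −24.4. *Adora2a* had fold enrichments of 3.79 and 3.74, near percentile 11.7 in A2a and 13.7 in D1, over peaks of 3697 and 3375 bp, so its peak was wide and of low enrichment in both lists. Peaks were wider in A2a at 81.3% of the 11788 genes and wider in D1 at 18.3%. All 8 A2a markers were wider in A2a, by a median of 208 bp, where the median over all genes was 101 bp. Of the 9 D1 markers, 8 were wider in D1, with a median difference of −428 bp. *Drd1* covered 423 bp in A2a and 2484 bp in D1, *Slc35d3* 1620 and 3282 bp, and *Zfp521*, despite its higher A2a rank, 811 and 3120 bp. The A2a width of *Drd1* leaves out the other A2a peak, outside the promoter window, that overlaps the D1 peak.

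**Figure D2:**
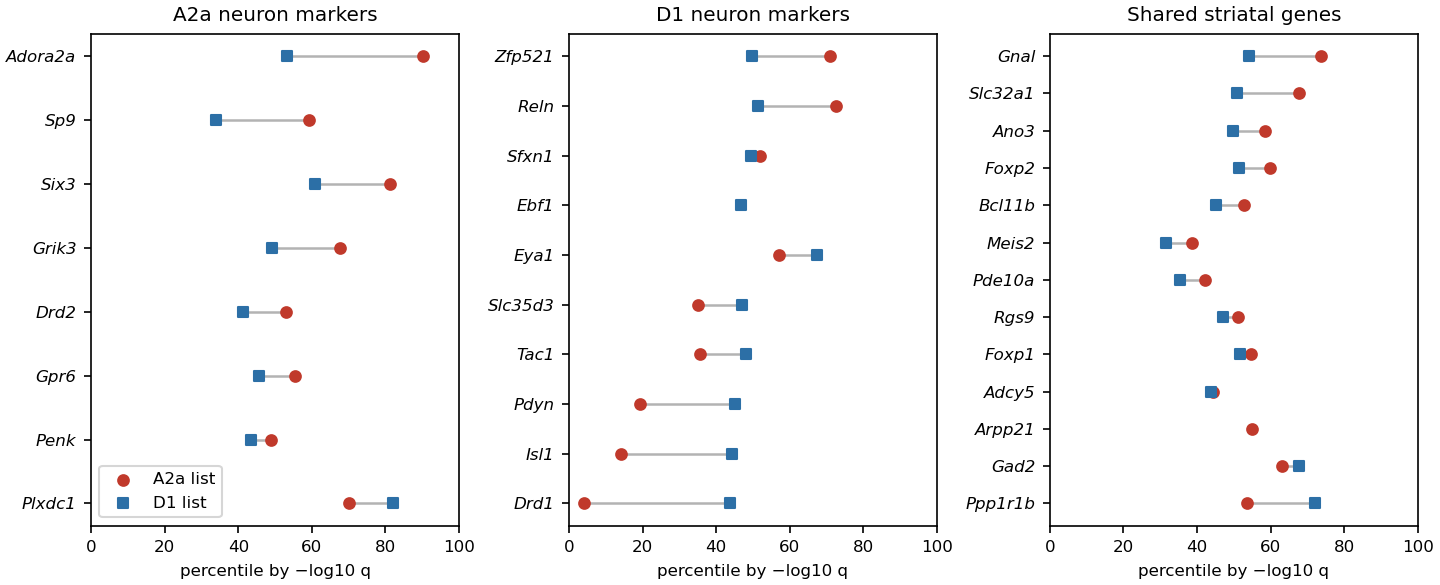
Percentile by −log10 q (x axis) of the promoter peak in the A2a list (circles) and the D1 list (squares) for markers of A2a neurons, markers of D1 neurons and genes shared by both, one line per gene shown; a lone symbol is a gene with a promoter peak in 1 list. *Drd1*, *Isl1* and *Pdyn* lie below percentile 20 in A2a and above 43 in D1, and *Plxdc1*, *Reln* and *Zfp521* run against their lists.

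Genes that both neuron types use ran both ways. Of 16 such genes, 13 had a peak in both lists, and the median shift minus that of all genes was 2.79 points, or −3.41 within groups of equal mean percentile. *Ppp1r1b*, which encodes DARPP-32, stood at 53.7 in A2a and 72.1 in D1, and *Gnal*, the G protein subunit that couples D1 and A2A receptors to adenylyl cyclase, at 73.7 and 54.1. *Slc32a1*, the vesicular GABA transporter, stood at 67.8 and 50.8. *Adcy5* and *Foxp1* differed by less than 4 points. *Arpp21* had a promoter peak in A2a alone, at percentile 54.8, but this peak overlapped a D1 peak outside the promoter window. *Gad1* and *Rarb* had no promoter peak in either list.

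Immediate early genes, which neuronal activity induces, also sat at the background as a list. Of 28 genes, 25 had a peak in both lists, and their median shift was 0.401 points from that of all genes. Inside the list the genes ran both ways. *Egr1* stood at 58.9 in A2a and 96.9 in D1 and *Jun* at 69.0 and 85.7. *Dusp1*, a MAP kinase phosphatase, stood at 78.8 and 53.4, *Klf4* at 89.5 and 74.9 and *Bdnf* at 26.9 and 3.003. *Fos*, *Fosb*, *Junb*, *Arc* and *Egr4* each differed by less than 5 points.

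Promoters were classed by CpG content over 300 bases around the 5′ end. CpG-rich promoters had a ratio of observed to expected CpG of at least 0.75 with at least 55% G and C, CpG-poor promoters had a ratio below 0.48, and the rest were intermediate. CpG-poor promoters had larger shifts to A2a than CpG-rich ones. The median shift was 2.51 points over 5320 CpG-rich genes, 4.01 over 4609 intermediate genes and 7.12 over 1859 CpG-poor genes. The share at least 10 points higher in A2a was 23.8%, 27.3% and 36.4% in these classes, and the share at least 10 points higher in D1 was 13.8%, 8.85% and 5.22%. Genes with a promoter peak in A2a alone made up 1.46%, 4.11% and 12.4% of the genes of each class with a peak in either list. Beside all genes, the medians of the CpG-rich and CpG-poor classes were −1.41 and 3.20 points. Within groups of equal mean percentile they were −0.539 and 1.56, and by fold enrichment −1.85 and 2.86, so the order held in all 3. Over genes the Spearman coefficient of the shift was −0.161 with the CpG ratio and −0.00326 with the GC content.

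Promoters with a TATA box were near the background. The letters TATAAA or TATATA were searched on the strand of the gene, from 40 to 20 bases upstream of the 5′ end. They were found in 3.28% of all promoters and in 0.993% of those with a peak in both lists. The median shift of these 117 genes was 3.79 points, beside 3.92 for the genes without the letters.

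Divergent promoters, which have the 5′ end of another protein-coding gene on the opposite strand within 1 kb upstream, stood lower in A2a than other genes. The median shift of 1366 such genes, which shared 676 distinct A2a peaks, was −0.0196 points, against 4.56 for the remaining genes. At least 10 points higher in A2a were 14.6% of them, and at least 10 points higher in D1 were 18.2%. Set beside all genes, the median was −3.94 by −log10 q, −1.24 within groups of equal mean percentile and −5.23 by fold enrichment, but −2.05 among shared genes and −0.127 by width. The difference by −log10 q stood in each CpG class, at −0.458 for divergent and 3.25 for other genes among CpG-rich promoters, 0.849 and 4.45 among intermediate ones, and 3.995 and 7.16 among CpG-poor ones.

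Promoters that carried the Polycomb mark in both cell types had the highest median shift of the promoter types. H3K27me3 islands of the 2 cell types, called by the authors on pooled Active Motif libraries, were overlaid on the same promoter windows. The D1 list of this mark carries a source name that reads A2a, while its title and cell type read D1, and it was taken as D1 here. The median shift was 2.80 points over 10043 genes with an island in neither list, 7.67 over 550 genes with one in A2a alone, 6.13 over 68 genes with one in D1 alone and 10.96 over 1127 genes with one in both lists. Of these 1127 genes, 55.01% were at least 10 points higher in A2a and 1.95% at least 10 points higher in D1, beside 27.2% and 10.5% of all genes. Their peaks were weak, with median percentiles of 44.6 in A2a and 34.2 in D1. A promoter peak in A2a alone was found in 21.1% of the genes of this class that had one in either list. The shift stood in each CpG class, with medians of 10.1, 11.3 and 11.8 points from CpG-rich to CpG-poor. Beside all genes the median was 7.04 by −log10 q and 10.9 by fold enrichment, but 2.03 within groups of equal mean percentile and 0.670 when percentiles were taken among the shared genes, so the difference was smaller among genes of equal rank. Within those groups the median was 0.510 for an island in A2a alone, 2.72 for one in D1 alone and 2.78 for promoters with at least 75% G and C, so the class with islands in both lists was not the highest there.

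**Figure D3:**
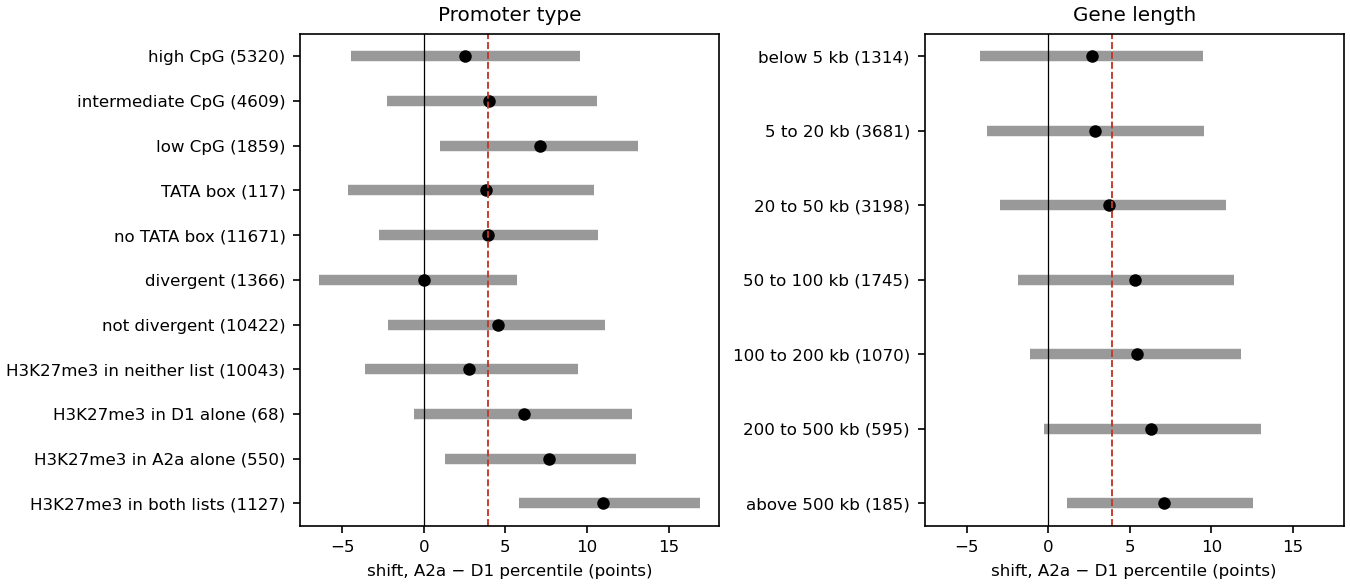
Shift of the promoter peak, A2a minus D1 percentile in points (x axis), by promoter type (left) and gene length (right), with the number of genes in brackets; points are medians, grey bars run from the 25th to the 75th percentile of the genes, the dashed line is the median of all genes at 3.92 and the solid line is 0. Divergent promoters lie lowest at −0.0196, promoters with H3K27me3 in both lists lie highest at 10.96, and the medians climb with gene length from 2.66 to 7.12, an order that turns over when peaks are ranked by width.

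Longer genes stood higher in A2a in the ranking by −log10 q. The median shift was 2.66 points for 1314 genes below 5 kb, 2.88 between 5 and 20 kb, 3.74 between 20 and 50 kb and 5.32 between 50 and 100 kb. It was 5.45 between 100 and 200 kb, 6.31 between 200 and 500 kb and 7.12 for 185 genes above 500 kb. Of the longest genes, 66 (35.7%) were at least 10 points higher in A2a and 6 (3.24%) at least 10 points higher in D1. The shares of all genes were 27.2% and 10.5%. *Ptprm*, a receptor tyrosine phosphatase gene of 688 kb, stood at 89.6 in A2a and 56.3 in D1, and *Chrm3*, a gene of 485 kb, at 98.4 and 52.6. Across genes the coefficient between shift and length was 0.105. The order was clearest at CpG-rich promoters, with 0.799, 2.87 and 5.197 points below 20 kb, between 20 and 100 kb and above 100 kb. At CpG-poor promoters the same bins gave 6.33, 7.50 and 7.14, and among genes with H3K27me3 in both lists the medians were 11.1 below 20 kb and 10.4 above 100 kb. Beside all genes, the medians below 5 kb and above 500 kb were −1.26 and 3.20 by −log10 q, −1.29 and 2.57 within groups of equal mean percentile and −0.579 and 1.87 by fold enrichment. Fold enrichment lowered the median of genes between 50 and 100 kb from 1.40 to 0.588 and of those between 100 and 200 kb from 1.53 to 0.510. When peaks were ranked by width the order turned over, with 0.8001 points below 5 kb and −1.16 above 500 kb.

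Gene families were counted against all genes, as lists chosen for this tissue, and the values below are list medians minus the median of all genes. Housekeeping families lacked the lean of all genes to A2a, so their medians lay below that of all genes. Cytosolic ribosomal proteins had −6.70 points over 73 genes, and 50 of them ranked lower in A2a, with median percentiles of 87.2 in A2a and 91.4 in D1. *Rps12* stood at 78.1 and 98.3 and *Rpsa* at 66.9 and 89.3, while *Rpl23*, at 87.5 and 70.3, ran against the list. At least 10 points higher in D1 were 14 of the 73 genes and at least 10 points higher in A2a were 6, which are 19.2% and 8.22% beside 10.5% and 27.2% of all genes. The list median was −3.67 within groups of equal mean percentile and −7.56 by fold enrichment, but 0.0211 by width.

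Other basic machinery was similar in size. Mitochondrial ribosomal proteins had −4.72 points over 76 genes, subunits of oxidative phosphorylation −4.65 over 80 and proteasome subunits −4.54 over 34. Spliceosome factors had −4.25 over 44 genes, Mediator, polymerase and general transcription factors −4.62 over 96, and heat shock and J proteins −4.08 over 57. Before the median of all genes was subtracted, these 6 medians lay between −0.802 and −0.160 points. In these 6 lists the median stayed below that of all genes within groups of equal mean percentile and by fold enrichment, while by width mitochondrial ribosomal proteins had 0.320 and heat shock and J proteins 1.85. *Gtf2f1*, a subunit of TFIIF, stood at 72.8 in A2a and 98.8 in D1. *Hspa8* and *Hspd1*, the constitutive HSC70 and the mitochondrial HSP60 chaperones, stood at 60.4 against 89.7 and 67.1 against 91.9. *Sf3a2*, a splicing factor, stood at 61.9 and 96.9, and shares its peak with *Plekhj1*. *Ndufs6* and *Mrpl36* share a divergent peak at 62.1 in A2a and 88.3 in D1. Other members ran the other way, among them *Polr1d* at 90.0 in A2a and 58.5 in D1 and *Med8* at 91.9 and 70.9. *Dnajc28* stood at 82.5 and 55.3, *Prpf40b* at 77.1 and 53.4 and *Psmc4* at 82.3 and 61.0. *Psmb8*, a subunit of the immunoproteasome, did so from weak peaks, at 28.6 and 3.74. In the 6 lists the share at least 10 points higher in A2a ran from 8.75% to 22.8%, and in D1 from 5.88% to 17.5%. The shares of all genes were 27.2% and 10.5%.

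Replication-dependent histone genes had a list median of −4.28 points by −log10 q over 62 genes on 36 distinct A2a peaks. It was −5.11 within groups of equal mean percentile and −7.73 by fold enrichment, but 0.884 by width. At least 10 points higher in each cell type were 14 genes (22.6%), beside 27.2% of all genes for A2a and 10.5% for D1. *Hist1h4d* stood at 57.6 in A2a and 86.2 in D1, while *Hist1h2bq* and *Hist1h4m*, which share a peak, stood at 95.9 and 64.4. Several histone genes under 1 peak are not separate measurements. Chromatin enzymes were near the background at −2.28 points over 60 genes and 0.618 within groups of equal mean percentile, with 15 at least 10 points higher in A2a and 11 in D1. *Kmt2a*, which encodes the H3K4 methyltransferase MLL1, stood at 69.7 and 96.6, *Smarca4*, the BRG1 remodeller, at 65.04 and 94.9 and *Setd5* at 80.8 and 55.3.

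Zinc finger genes named Zfp stood higher in A2a. The list median was 2.44 points over 315 genes, 251 of which were higher in A2a, beside 65.4% of all genes. At least 10 points higher in A2a were 111 of them (35.2%) and in D1 17 (5.40%), beside 27.2% and 10.5% of all genes. Within groups of equal mean percentile the median was 2.72 and by fold enrichment 1.09. *Zfp777* stood at 82.3 in A2a and 50.7 in D1, and *Zfp984* at 43.9 and 3.74, while *Zfp287* stood at 66.1 and 90.9. Homeobox genes were mostly without a peak, as 20 of 125 had one in both lists, 12 in A2a alone and 93 in neither. The 12 were 37.5% of those with a peak in either list, beside 4.39% of all genes. The 20 had 5.61 points, but 1.31 within groups of equal mean percentile.

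Among families of the cell surface the protocadherins and cadherins lay highest. Of 90 genes, 72 had a promoter peak in both lists and 8 in A2a alone. The list median was 7.68 points, 3.86 within groups of equal mean percentile and 8.89 by fold enrichment. At least 10 points higher in A2a were 39 genes (54.2%) and in D1 2 (2.78%), beside 27.2% and 10.5% of all genes. The clustered protocadherins, whose promoters are chosen cell by cell in neurons, had medians of 7.53, 9.11 and 9.68 points for the alpha, beta and gamma clusters. Within groups of equal mean percentile these medians were 3.39, 4.39 and 3.75. All 17 beta cluster genes with a peak in both lists were higher in A2a, beside 65.4% of all genes. Of them, 12 (70.6%) were higher by at least 10 points, and the other 5 beta cluster genes had a peak in A2a alone. Their shared peaks were weak, with median percentiles of 41.3 in A2a and 24.2 in D1. In the weakest of 10 equal groups by mean percentile, 93.0% of genes were higher in A2a and 60.2% by at least 10 points. *Pcdhb2* stood at 36.7 and 8.19 and *Pcdhb1* at 46.9 and 20.9. In the alpha cluster 10 of 12 genes were higher in A2a and in the gamma cluster 17 of 19, where *Pcdhgc5* ran against the list at 71.8 and 86.9. The 9 protocadherins outside the clusters had a median of 1.58 points and the 15 cadherins 6.08. These clusters are dense arrays of similar promoters, so their peaks are neighbours and not independent.

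Secreted and matrix genes followed. Matrix proteins and integrins had 4.62 points over 59 genes, with *Lamb1*, a laminin chain, at 97.6 and 74.5 and *Mmp11* at 74.7 and 91.9. At least 10 points higher in A2a were 27 of them (45.8%) and in D1 1 (1.69%), beside 27.2% and 10.5% of all genes. Ligands of the Wnt, Fgf, Bmp, Tgfb and Gdf families had 4.90 points over 27 genes, with *Tgfb1* at 39.6 and 9.27. Of these ligands, 13 (48.1%) were at least 10 points higher in A2a and 0 in D1. In both lists the median stayed above all genes within groups of equal mean percentile, at 3.08 and 4.62, and by fold enrichment, at 8.597 and 6.78.

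Families of neuronal excitability had medians above that of all genes by −log10 q, and below it by width. Sodium and calcium channel subunits had 5.09 points over 27 genes, 2.39 within groups of equal mean percentile and −0.523 by width. In this list 11 genes (40.7%) were at least 10 points higher in A2a and 1 (3.70%) in D1, beside 27.2% and 10.5% of all genes. *Scn1a*, the Nav1.1 channel, stood at 82.6 and 57.4. Glutamate and GABA receptor subunits had 2.92 points over 29 genes, but −0.890 by width. At least 10 points higher in A2a were 9 of them (31.0%), near the share of all genes, and 0 were so in D1. *Grik3* and *Grik1*, kainate receptor subunits, stood at 67.6 against 49.3 and 53.1 against 37.5, and *Gria4*, an AMPA receptor subunit, at 83.4 and 93.1. Potassium channels had 2.01 points over 63 genes, 0.115 within groups of equal mean percentile and −0.727 by width, and *Kcnn1*, a small-conductance calcium-activated channel, stood at 60.0 and 90.9. Receptors for transmitters and peptides had 2.87 points over 43 genes, but −1.11 within groups of equal mean percentile and −0.810 by width, and this list holds *Adora2a*, *Drd2* and *Drd1*.

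Synaptic families had medians between 0.997 and 2.67 points. Vesicle release proteins had 0.997 points over 75 genes, or −1.08 by width, and postsynaptic scaffold proteins 1.61 over 13, or −2.70 within groups of equal mean percentile. Synaptic adhesion proteins had 2.32 points over 44 genes, 3.30 within groups of equal mean percentile, 5.93 among shared genes and −1.25 by width. In this list *Cntnap5a* stood at 92.7 and 73.1 and *Adgrl1*, a latrophilin, at 53.7 and 79.9. *Lrrc45*, a centrosome protein that entered this list by its leucine-rich repeat name, stood at 92.2 and 67.6. Axon guidance genes had 2.67 points over 55 genes by −log10 q and −0.488 by fold enrichment, with *Robo2* at 85.0 and 60.4 and *Sema7a* at 58.1 and 80.3. Of 70 CaM and MAP kinase genes, 25 (35.7%) were at least 10 points higher in A2a and 10 (14.3%) in D1. Of 81 genes of G protein and cyclic nucleotide signalling, 27 (33.3%) and 7 (8.64%) were so, beside 27.2% and 10.5% of all genes. Within groups of equal mean percentile the medians were 1.05 for the kinase list and −0.186 for the signalling list. *Camk2a*, the alpha subunit of CaM kinase II, stood at 59.7 in A2a and 89.6 in D1 and *Mapk3* at 53.2 and 27.5. In the signalling list *Prkaca*, the catalytic subunit of protein kinase A, stood at 58.3 and 93.0. *Rgs4*, a regulator of G protein signalling, stood at 70.2 and 94.1, while *Gng8* stood at 49.8 and 21.4.

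Other lists varied in how many of their promoters had a peak. Of 1457 olfactory and vomeronasal receptors, 1 had a promoter peak in both lists. Of 210 immune and interferon genes 41 had one in both lists and 16 in A2a alone. The 16 were 28.1% of those with a peak in either list, beside 4.39% of all genes. The 41 with a peak in both lists had 3.78 points, and −0.466 within groups of equal mean percentile. Solute carriers had 2.56 points over the 198 of 372 genes with a peak in both lists, or −0.162 by width. Cell cycle genes had −1.03 over 72 of 86, or 0.381 within groups of equal mean percentile.

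**Figure D4:**
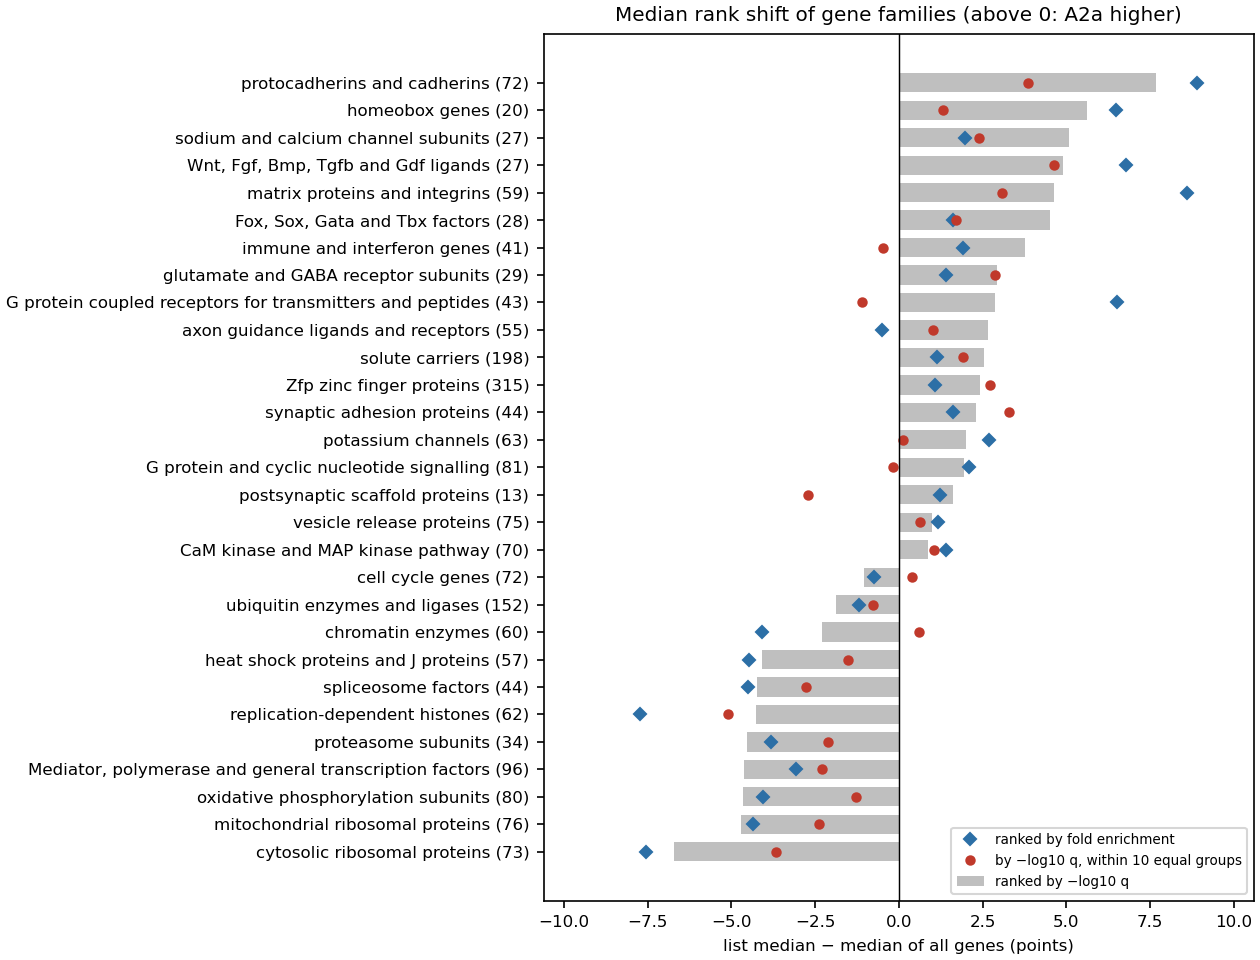
Median shift of each gene family minus the median of all genes, in percentile points (x axis), with the number of genes in both lists in brackets; bars rank the peaks by −log10 q, circles set each gene against genes of the same mean percentile (10 equal groups) and diamonds rank by fold enrichment. Ribosomal proteins lie lowest at −6.70 and protocadherins and cadherins highest at 7.68, and the circles of both lists are nearer to 0, at −3.67 and 3.86 (by width, not drawn, the ribosomal proteins have 0.0211).

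Single genes with strong peaks in both lists shifted far. *Chrm3*, the M3 muscarinic receptor, was the largest of those higher in A2a among genes above percentile 50 in both lists, at 98.4 and 52.6. Its −log10 q was 249 in A2a and 54.3 in D1, its fold enrichment 7.15 and 5.44, and its peak widths 2151 and 2091 bp, over a CpG-poor promoter with H3K27me3 islands in both lists. *Hsd17b11*, a dehydrogenase of lipid droplets, stood at 94.4 and 57.1 and *Ankrd52*, a regulatory subunit of protein phosphatase 6, at 95.1 and 58.8. *Eid2* stood at 92.5 and 59.3 and *Frem2*, an extracellular matrix protein, at 92.4 and 59.2. *Ptprm* and *Frem2* differed by 0.588 and 2.86 points when ranked by fold enrichment, where *Ankrd52* differed by 32.0.

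On the D1 side, *Ubb*, a polyubiquitin gene, stood at 54.4 in A2a and 99.1 in D1, with −log10 q values of 75.5 and 207 and fold enrichments of 3.92 and 7.53. *Eif5a*, a translation factor, stood at 54.4 and 90.5, *Sp1*, the factor that binds GC boxes, at 57.3 and 92.7 and *Csnk1g2*, a casein kinase, at 61.9 and 96.9. *Rbm15*, an adaptor of RNA methylation, stood at 60.2 and 94.7 and *Tlcd2* at 52.7 and 87.1. The 8 genes with the largest D1 shifts above percentile 50 differed by fold enrichment in the same direction, from −51.5 points for *Ubb* to −28.7 for *Rbm15*.

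**Figure D5:**
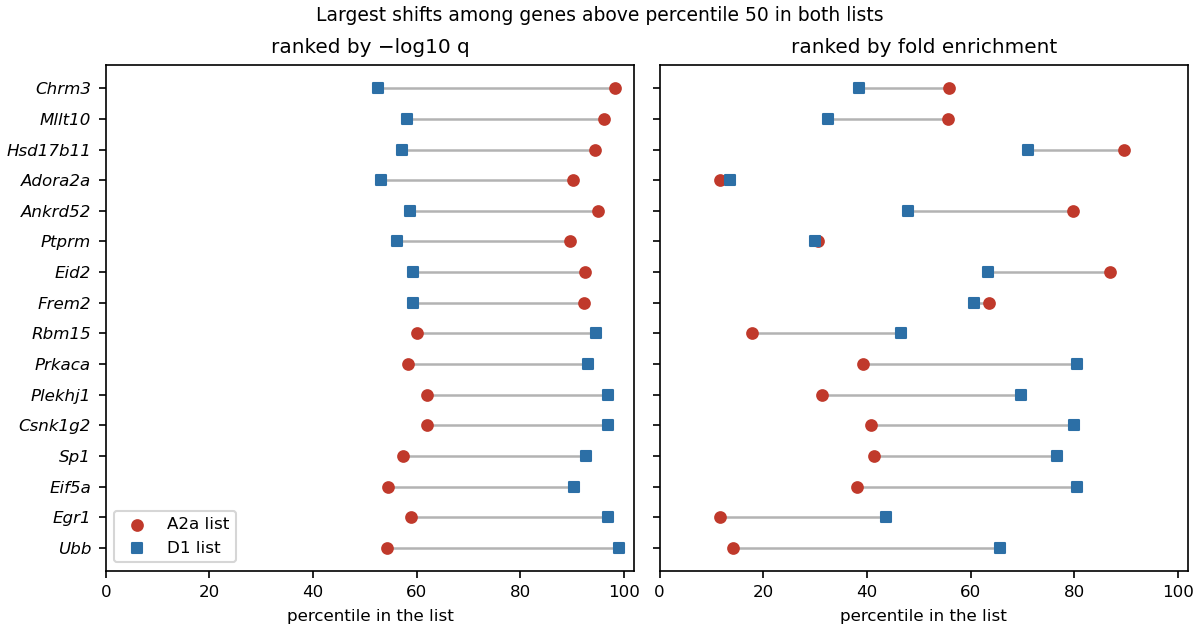
Percentile (x axis) in the A2a list (circles) and the D1 list (squares) of the 8 genes with the largest shift in each direction among genes above percentile 50 in both lists, ranked by −log10 q (left) and by fold enrichment (right). All 8 genes higher in D1 keep a wide gap on the right, while *Adora2a*, *Ptprm* and *Frem2* have gaps of −1.93, 0.588 and 2.86 points there.

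Some of the largest shifts came from where a peak ended. *Zfr2* stood at 92.3 in A2a and 19.9 in D1, but the D1 peak that overlaps its A2a peak ranked at 84.0 and lay outside the promoter window. For *Csnk2a2*, a catalytic subunit of casein kinase II, the values were 88.1 and 25.2, with an overlapping D1 peak at 66.5, and for *Ehbp1l1* 80.6 and 22.99, with one at 69.8. *Srcin1*, at 79.1 and 39.7, had one at 66.2, and *Mllt10*, at 96.1 and 58.1, had one at 89.3. *Pbx2*, a homeobox gene, stood at 29.9 in A2a and 87.0 in D1, while an A2a peak that overlaps the D1 peak ranked at 95.3. *Csnk2a2* and *Pbx2* are the CpG-poor promoters shown above, and their A2a peaks began 763 and 396 bases downstream of the annotated 5′ end.

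Genes with a promoter peak in 1 list alone were weakly marked. Of the 543 in A2a alone, 510 had no D1 peak that overlapped, their highest percentile was 38.7 for *Soga3*, and the median of the 543 was 17.3. Of the 32 in D1 alone, 28 had no A2a peak that overlapped, and *Ebf1* ranked highest of these at 46.8. *Syndig1*, *Ndrg4* and *Pdgfa* had strong peaks in A2a alone, at 97.9, 96.2 and 93.5, but each overlapped a D1 peak outside the window, at 84.0, 91.0 and 72.7. *Rps10* and *Tmed9*, at 81.8 and 66.3 in D1 alone, overlapped A2a peaks at 74.0 and 80.3 in the same way. *Ptms*, at 36.0 in D1 alone, had no A2a peak that overlapped.

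Outside promoters the lists differed more. Peaks of both lists merged to 22723 regions, of which 17858 (78.6%) were in both lists, 3871 (17.0%) in A2a alone and 994 (4.37%) in D1 alone. At promoters of protein-coding genes 94.5% of 11297 regions were in both lists, with a 95% Wilson interval of 94.0% to 94.9%, which covers counting error only. At promoters of other annotated genes 76.4% of 1470 regions were in both lists, inside genes 60.9% of 6612 and between genes 60.8% of 3344. The median percentiles of shared regions were 71.9 in A2a and 68.9 in D1 at protein-coding promoters, 36.9 and 28.2 inside genes and 34.99 and 27.01 between genes. Regions of A2a alone had a median percentile of 11.2 and regions of D1 alone 8.19. A single A2a peak covered several D1 peaks in 528 regions, and a single D1 peak several A2a peaks in 81.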

How the data were processed

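Peak lists of H3K4me3 CnR in A2a and D1 nuclei were analysed, each called by the authors on both Abcam replicates pooled. Per the submitters' processing notes and the study's methods, reads were aligned to mm10 with Bowtie2 2.1.0, filtered with SAMtools 0.1.19 and Picard, and called with MACS2, with no control named. The deposited values are a fold enrichment (a ratio) and a −log10 q-value for each peak. The authors called the H3K27me3 islands with SICER, and the deposited count of reads per island was not normalised; only positions were used here. Depth per sample is not given in the lists and limits weak peaks most. No columns belonged to samples of other series.

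Peaks on chromosomes 1 to 19 were ranked by −log10 q within each list, ties sharing their mean rank. The strongest peak from 2 kb upstream to 1 kb downstream of the 5′ end stood for each protein-coding gene of the GENCODE annotation. Shifts of at least 10 percentile points were counted. The members, gene lists and classes were chosen with earlier results of these data known. Named genes were the 12 largest shifts in each direction, the 8 largest among genes above percentile 50 in both lists, the 5 strongest peaks of 1 list alone, the 2 largest shifts in each direction of each family, the largest of the CpG-poor class and all marker genes; other names serve as values beside these. *Gpr52*, on the A2a marker list, was not found among the genes used. A few items are not reported here. Python 3.11.15, numpy 2.4.6, pandas 2.3.3, scipy 1.17.1 and matplotlib 3.10.9 were used, and the ranking was tested on simulated data. The alternatives tried were 12 planned and 3 chosen after seeing the data.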

Additional observations from a re-analysis of the deposited data

Results flagged for a closer look

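Both values come from chromosomes that were not ranked. The D1 list held 7 H3K4me3 peaks on chromosome Y, where the A2a list held 2. The A2a list held a promoter peak of *Xist* with a −log10 q of 136, and the D1 list held none there. The labels do not say which sex each library came from.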

How the results depend on the processing

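Each value was recomputed under 15 alternatives, 3 of which (D1 peak overlapping the A2a peak, shifts within gene length bins, shifts within groups of equal promoter GC) were chosen after seeing the data. The alternatives gave 709 values, and 57 of 669 class medians changed sign, 22 of them by width and 8 within groups of equal mean percentile. Class medians here are minus the median of all genes. By fold enrichment, 2011 genes were at least 10 points higher in A2a and 2492 in D1, and the median of all genes was −1.02. The medians were −1.85 for CpG-rich promoters and 10.9 for H3K27me3 in both lists, and the marker medians turned, to −4.66 for A2a and 9.48 for D1. By width the counts were 1726 and 189 and the median of all genes 1.07. CpG-rich promoters had −0.330, CpG-poor 0.571, H3K27me3 in both lists 6.45 and protocadherins and cadherins 3.28. Turned by width were genes below 5 kb (0.8001), 5 to 20 kb (0.531), 50 to 100 kb (−0.556), 100 to 200 kb (−0.311), 200 to 500 kb (−1.08) and above 500 kb (−1.16), ribosomal proteins of cytosol (0.0211) and mitochondria (0.320), heat shock and J proteins (1.85), histones (0.884), glutamate and GABA receptor subunits (−0.890), receptors for transmitters and peptides (−0.810), solute carriers (−0.162) and A2a markers (−0.580). Another 8 class medians, whose main interval over genes held the median of all genes, also changed sign by width: H3K27me3 in D1 alone (−0.991), potassium channels (−0.727), sodium and calcium channels (−0.523), synaptic adhesion (−1.25), vesicle release (−1.08), CaM and MAP kinases (−0.824), shared projection neuron genes (−1.23) and immediate early genes (−0.629). With percentiles among shared genes, 2485 genes were at least 10 points higher in D1, the median of all genes was 0.246, and the medians were −0.607 for CpG-rich, 1.21 for CpG-poor, 0.670 for H3K27me3 in both lists, 1.996 for protocadherins and cadherins and −0.543 for the receptors. With equal numbers of peaks the counts were 1917 and 1877, the median of all genes 0.394, and the medians −0.750 for CpG-rich, 2.35 for CpG-poor and 4.04 for H3K27me3 in both lists. With peaks of −log10 q of at least 5, the median of all genes was 4.97, and CpG-poor promoters had 3.62 and H3K27me3 in both lists 7.98. With any transcript start the last was 6.33, and with 1 gene for each A2a peak the median of all genes was 4.46. Within groups of equal mean percentile, 1682 genes were at least 10 points higher in A2a, and the medians were −0.539 for CpG-rich, 1.56 for CpG-poor, 2.03 for H3K27me3 in both lists, −3.67 for cytosolic ribosomal proteins, 3.86 for protocadherins and cadherins and −1.11 for the receptors. Thresholds of 5 and 20 points gave 5386 and 2268, and 650 and 316 genes, by construction. Within length bins the counts were 1876 and 1985, and within GC groups 1872 and 1954, since each bin is set against its own median. The cause of the other moves was not tested. Of the remaining values, 106 of the main counts and medians and 494 others moved by less than their interval or 1.5 times, and 48 others moved more. No paired analysis was possible because each list pools both replicates, and leaving out a replicate could not be run for the same reason. Depth is unknown and weak peaks are the least certain.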
